A study of Mus musculus with 6 samples.

Results

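The early transposons (ETn) of the mouse and the LTR group RLTR13 are endogenous retroviruses of the ERVK family, here followed copy by copy in embryonic stem cells with and without the histone methyltransferase Dot1l. Members were selected on their names in a table of 26255 single transposable element (TE) copies: every ERVK copy whose element name contains ETn, in any letter case, or begins with RLTR13. The rule took 399 copies of 25 elements, 249 of them internal parts of 4 elements and 150 of them long terminal repeats (LTRs) of 21 elements, and 28 matching rows of a table of 938 TE subfamilies. The group was proposed with the fold changes of this same comparison in view, so the values below describe it and are no independent support for a change of the group. The samples were 3 libraries of E14 embryonic stem cells with Dot1l knocked out by CRISPR/Cas9 (genotype Dot1L-/-, called Dot1l KO) and 3 of wild-type E14 cells (WT), all labelled day 14 and all kept in serum with LIF on gelatin. E14 is an established mouse line; the labels speak of knockout lines but do not say which library is of which line, nor that replicates are separate cultures, so p-values measure only the spread between these libraries.

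ETn elements are retrotransposons that carry LTRs at both ends but no genes of their own, and they move with the proteins of coding relatives known as MusD. The LTRs hold the start site and the signals of transcription, and the internal part between them makes up the body of the transcript. New ETn insertions are a known source of mutations in laboratory mice, and in stem cells ERVK elements are held down by Trim28 and Setdb1, by methylation of histone H3 and by DNA methylation. In the names of the elements, MMETn-int is the internal part of ETn, ETnERV-int that of the coding relatives and RLTRETN_Mm the LTR of ETn, while the RLTR13 elements are a set of related LTRs. One of them, RLTR13D5, is known as an enhancer in trophoblast stem cells.

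The deposited tables hold the authors' DESeq2 comparison, which lists a mean normalized count over the 6 libraries, a log2 fold change, the standard error (SE) of that change and p-values, but no values of single libraries. The level of a member in each library therefore cannot be given; in its place the mean of each genotype was implied from the mean and the fold change, and it carries no spread of its own. A copy was called lower or higher at an adjusted p under 0.05 over the whole table. Positive values were taken to mean more RNA in Dot1l KO because MERVL, a retrovirus known from publications to rise in such cells, has them; the tables do not state the direction, and with the other sign every direction below would turn. Dot1l RNA does not settle it, with a log2 fold change of -0.16 ± 0.25 (SE) and adjusted p = 0.845 by the authors' deposited table. The names of the copies give no chromosome or position, and copy lengths are not known, so a mean count is never compared per length here. ETn copies are near-identical, and the handling of reads with several matches is not stated, so the value of a single copy is uncertain and copies are not independent of each other. The RNA is of whole cultures, in which fewer cells with a transcript and less of it per cell cannot be told apart.

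Most copies that fell in the whole table were ETn or RLTR13 copies. Of 393 members with a p, 39 were lower and 1 was higher in Dot1l KO, where 0.229% of all copies in the authors' deposited table were lower and 0.878% higher. The 60 lower copies of the whole table thus include 39 members, or 65.0%, although members make up 1.52% of its rows. The remaining 21 lower copies lay outside the group, 3 of them in other ERVK elements. At an unadjusted p under 0.05, 96 members were lower and 4 higher, where 476 of all 26204 copies with a p were lower and 755 higher. The median log2 fold change was -0.74 over the members, with quartiles of -1.98 and 0.03, and 0.02 over all copies; 294 of the 399 members were below 0. Because the group was proposed from this comparison, nothing is read from these counts beyond their size.

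Members held a large share of the counts of the copy table. Their mean counts ran from 4.06 to 9049 with a median of 20.7, where the median over all copies was 7.92, and their summed means were 21.4% of the sum over the whole table of 482719. The internal parts alone held 20.2% of it. Summed over all members, the implied level was 126684 normalized counts in WT and 79722 in Dot1l KO, a log2 ratio of -0.67. The same ratio was -0.24 over all copies and -0.12 over copies outside the group.

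**Figure D1:**
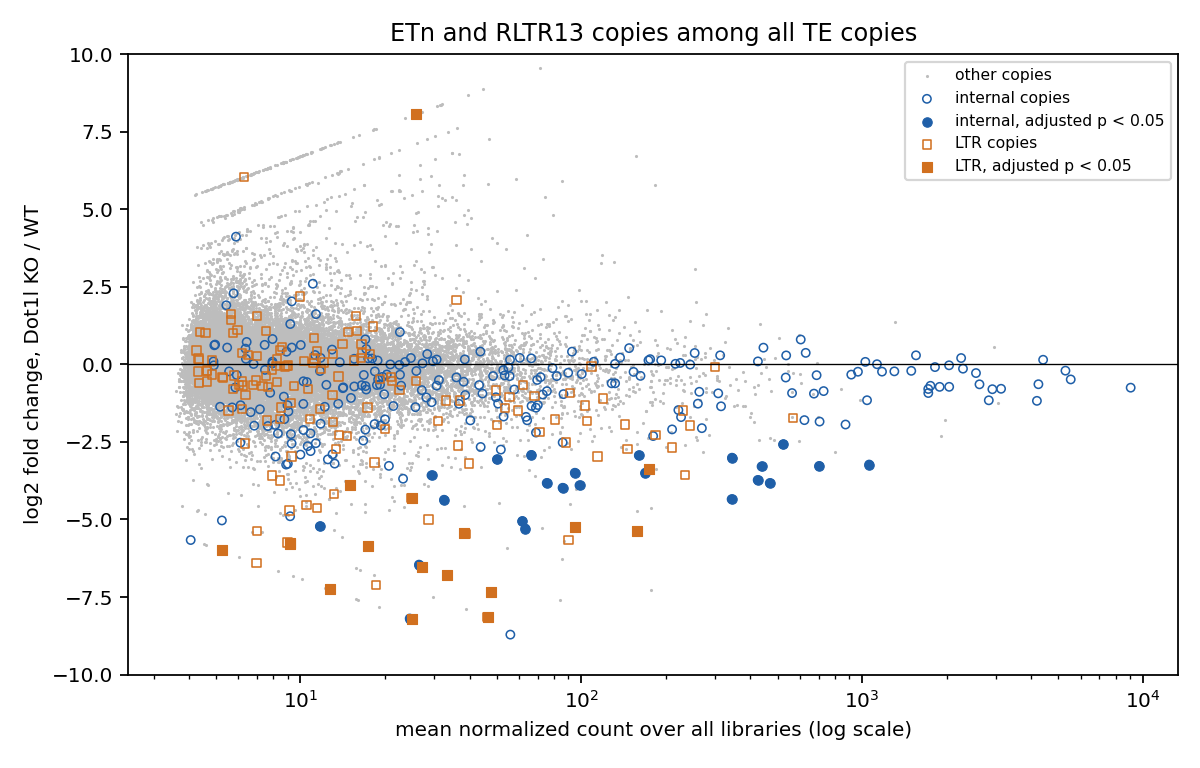
Log2 fold change of Dot1l KO over WT against the mean normalized count (log axis) for every TE copy, with internal ETn copies as circles, RLTR13 and ETn LTR copies as squares and filled marks for those past an adjusted p of 0.05. The filled marks lie between log2 fold changes of -8.22 and -2.58, with a single LTR copy at 8.08; 6 copies outside the group with an absolute value over 10 are not drawn.

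Of the internal parts, MMETn-int held nearly all the falls. It had 169 copies, of which 22 of 167 with a p were lower and 0 higher; at an unadjusted p under 0.05 these counts were 46 and 1. Its median log2 fold change was -0.79, with quartiles of -2.22 and -0.02. The copy with the smallest p of the whole table, singled out after its value was seen, was MMETn-int_dup461, with an implied level of 654 in WT and 32.2 in Dot1l KO. The fold change of this copy was -4.35 ± 0.64 on the log2 scale, adjusted p = 3.58e-07 by the authors' deposited table.

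Internal copies that fell had means from 11.7 to 1060, and those with the steepest falls were among the less abundant. Among called internal copies with a mean of at least 20, the 3 lowest fold changes belonged to MMETn-int_dup214, MMETn-int_dup41 and MMETn-int_dup46. MMETn-int_dup214 went from an implied 48.8 in WT to a level read as no reads in Dot1l KO, at least 48.8-fold lower against a floor of 3 reads over the group, with adjusted p = 0.00106 by the authors' deposited table. MMETn-int_dup41 had implied levels of 52.3 in WT and 0.595 in Dot1l KO, a log2 fold change of -6.46 ± 1.56 in the authors' deposited table that rests on very few KO reads. MMETn-int_dup46 went from 123.2 to 3.15, with -5.29 ± 1.16 and adjusted p = 0.00153 by the authors' deposited table.

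The smallest falls that still passed were MMETn-int_dup975, MMETn-int_dup620, MMETn-int_dup259, MMETn-int_dup167 and MMETn-int_dup718. MMETn-int_dup975 had implied levels of 897.6 in WT and 150.0 in Dot1l KO, with -2.58 ± 0.66 and adjusted p = 0.0134 by the authors' deposited table. The other 4 lay between -3.07 and -2.92 with adjusted p from 0.00172 to 0.0316 in the authors' deposited table. No copy of the group with a log2 fold change between -2.58 and 0 reached the threshold. The most abundant internal copy that fell was MMETn-int_dup893, chosen after its value was seen, with a mean of 1060 and implied levels of 1916 in WT and 204.2 in Dot1l KO; its fold change was -3.23 ± 0.62 in the authors' deposited table.

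Copies of MMETn-int with the highest counts did not pass. MMETn-int_dup669, the highest at a mean of 5535, had an implied 6458 in WT and 4612 in Dot1l KO, a log2 fold change of -0.49 ± 0.70 in the authors' deposited table. MMETn-int_dup212 stood at -0.20 ± 0.78, MMETn-int_dup431 at 0.15 ± 0.77 and MMETn-int_dup694 at -0.64 ± 0.61 in the authors' deposited table, each with adjusted p = 1.000. These 95% intervals, from -1.85 to 0.88 for MMETn-int_dup669 and from -1.36 to 1.66 for MMETn-int_dup431, include no change as well as falls of more than 1 on the log2 scale.

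ETnERV-int, the internal part of the coding relatives, had 67 copies and 1 fall. ETnERV-int_dup738, chosen after its value was seen, went from an implied 61.9 in WT to 3.0 in Dot1l KO, with -4.36 ± 1.00 and adjusted p = 0.00324 by the authors' deposited table. At an unadjusted p under 0.05, 7 copies were lower and 0 higher. Its median of -0.67 was close to that of MMETn-int, and 49 of its 67 copies were below 0. The most abundant copy of the whole TE table was ETnERV-int_dup657, with an implied 11354 in WT and 6744 in Dot1l KO and a fold change of -0.75 ± 0.64 in the authors' deposited table, which did not pass. Of ETnERV2-int, 8 copies had a median of 0.17, and of ETnERV3-int, 5 copies had a median of -1.77, with none of either called and 2 lower and 1 higher at an unadjusted p under 0.05. Their most abundant copies were ETnERV2-int_dup1610 at -0.69 ± 0.83 and ETnERV3-int_dup124 at -1.77 ± 1.03 in the authors' deposited table.

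**Figure D2:**
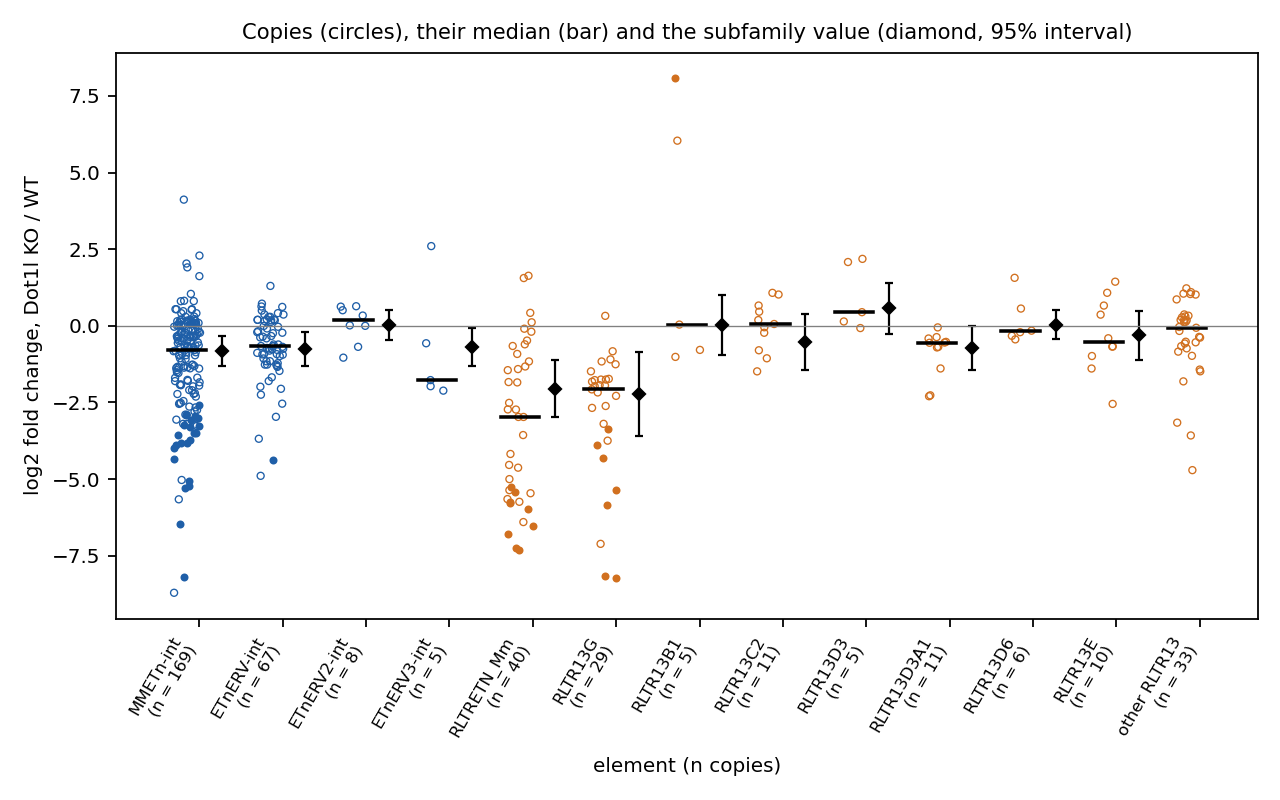
Log2 fold change of Dot1l KO over WT for each copy (circles, filled past an adjusted p of 0.05), by element, with the median of the copies (bar) and the value of the subfamily with its 95% interval (diamond); elements of RLTR13 with fewer than 5 copies are pooled at the right without a diamond. RLTRETN_Mm and RLTR13G have medians of -2.97 and -2.08, and the bars of the other RLTR13 elements drawn singly lie between -0.55 and 0.44. RLTR13B2, with a median of -3.16, is among the pooled elements.

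Among the LTRs, copies called lower lay in 2 elements and in none of the other 19. Those 19 had fewer copies each, so the lack of a call there is not the absence of a fall. RLTRETN_Mm, the LTR of ETn, had 40 copies, of which 9 of 36 with a p were lower and 0 higher, and 18 lower and 0 higher at an unadjusted p under 0.05. RLTR13G had 29 copies with 7 lower and 0 higher, and again 18 lower and 0 higher without adjustment. The medians were -2.97 for RLTRETN_Mm and -2.08 for RLTR13G, and 36 of 40 and 28 of 29 copies were below 0. All 16 lower LTR copies belonged to these 2 elements.

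Several of these LTRs were near silent in Dot1l KO. RLTR13G_dup446 had an implied 49.9 in WT and a level read as no reads in Dot1l KO, at least 49.9-fold lower against the floor, with adjusted p = 0.000760 by the authors' deposited table. RLTR13G_dup452 went from 92.4 to 0.324 and RLTRETN_Mm_dup678 from 95.1 to 0.592, with fold changes of -8.15 ± 1.59 and -7.33 ± 1.58 in the authors' deposited table that rest on very few KO reads. Of the 16 lower LTR copies, 10 had an implied KO level of 1 normalized count or less, among them 3 read as no reads, while the same was true of 3 of the 23 lower internal copies, 1 of them read as no reads. The called LTR copies had implied WT levels of 10.3 to 317.6, and the called internal copies 22.8 to 1916. The median SE was 1.15 over copies of RLTRETN_Mm and RLTR13G and 0.88 over internal copies. With a larger SE a copy must fall further to be called, so these 2 counts are not compared further. The bounds take the WT level without its error.

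Other LTR copies kept a measurable level. RLTR13G_dup863 had implied levels of 307.6 in WT and 7.48 in Dot1l KO, with -5.36 ± 1.06 and adjusted p = 0.000290 by the authors' deposited table. RLTRETN_Mm_dup1220 had 185.0 and 4.87, with -5.25 ± 1.04 and adjusted p = 0.000315 by the authors' deposited table. The smallest falls that passed with a mean of at least 20 were RLTR13G_dup851 at -4.30 ± 1.06 and RLTR13G_dup278 at -3.36 ± 0.89 in the authors' deposited table, the last with an implied 317.6 in WT and 30.8 in Dot1l KO.

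The LTR copies with the highest counts did not pass. RLTR13G_dup768, at a mean of 566.1, had an implied 870.3 in WT and 261.9 in Dot1l KO, or -1.73 ± 0.83 with adjusted p = 0.937 by the authors' deposited table. RLTR13G_dup729 stood at -1.97 ± 0.90 and RLTR13G_dup609 at -1.49 ± 0.80 in the authors' deposited table. The 95% intervals of these 3 copies reach down to -3.363, -3.734 and -3.049, in that order. Only that of RLTR13G_dup729 goes past the smallest fall that passed among LTR copies, -3.365 for RLTR13G_dup278. RLTRETN_Mm_dup82, the highest of its element, had 309.4 in WT and 289.6 in Dot1l KO, with -0.10 ± 0.88 in the authors' deposited table. Next to it RLTRETN_Mm_dup307 had 432.0 and 36.5 but no p, since DESeq2 leaves the p blank where it marks a count as extreme. In all 6 members had no p, 4 of RLTRETN_Mm and 2 of MMETn-int, with log2 fold changes from -8.71 to -2.31 in the authors' deposited table.

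**Figure D3:**
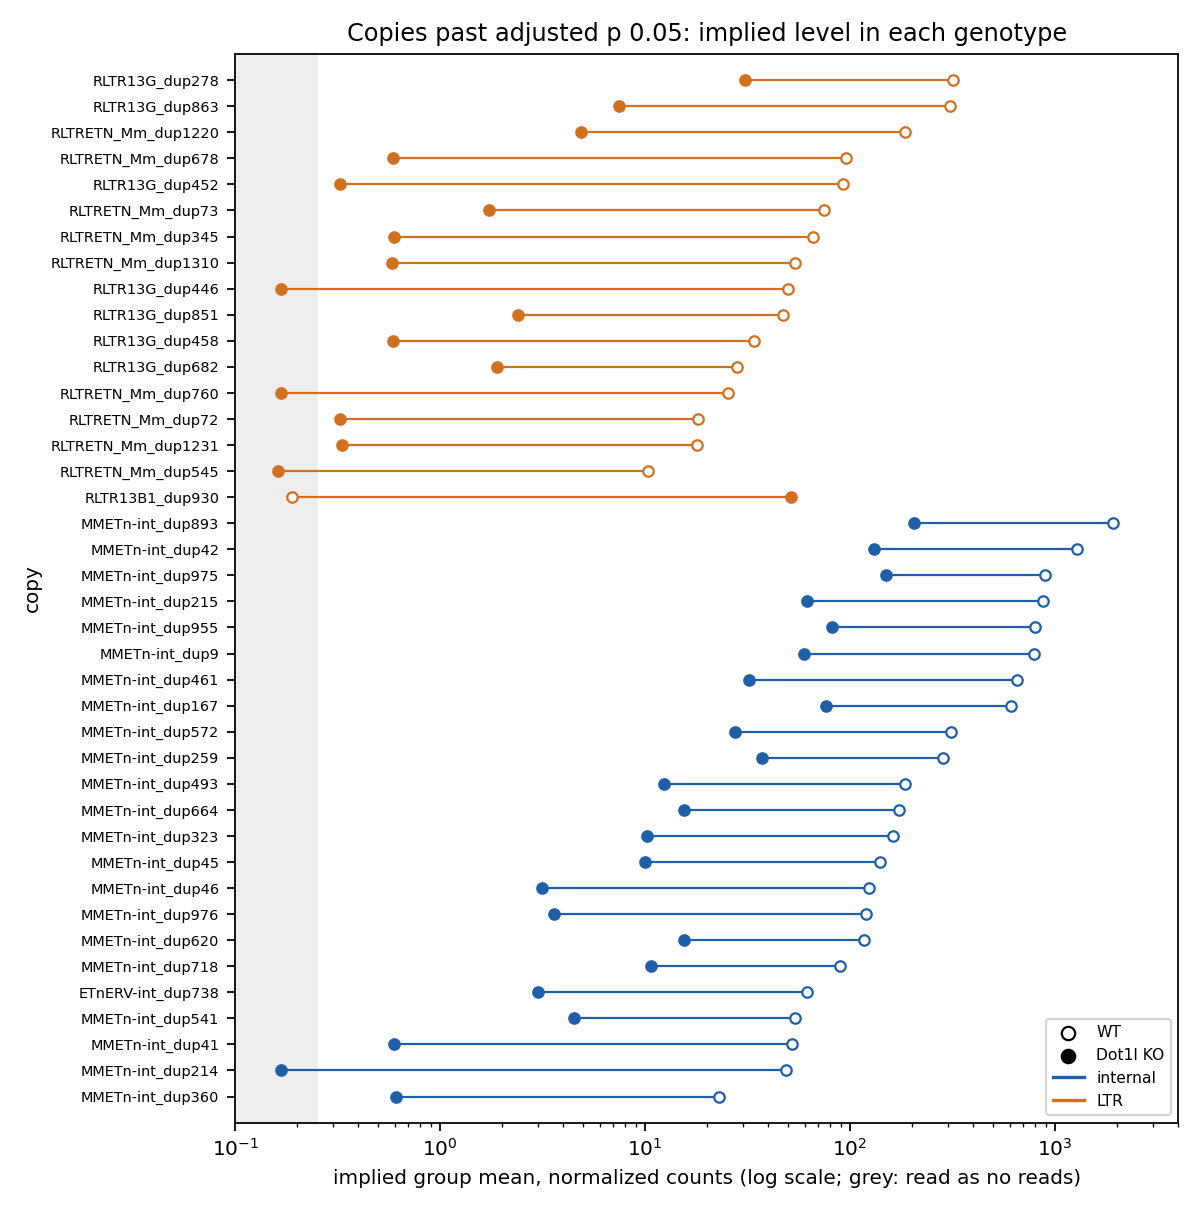
Implied mean of each genotype, in normalized counts on a log axis, for the 40 member copies past an adjusted p of 0.05 (open, WT; filled, Dot1l KO; blue, internal; orange, LTR); the grey band holds levels read as no reads. Dot1l KO is below WT in 39 copies and above it in RLTR13B1_dup930. The median log2 fold change is -5.83 over the lower LTR copies and -3.73 over the lower internal copies, which had higher WT levels at most.

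The 19 other RLTR13 elements had 81 copies, with 0 lower and 1 higher, a median log2 fold change of -0.17 and quartiles of -0.71 and 0.37. At an unadjusted p under 0.05, 5 of the 81 were lower and 2 higher, and nothing is read from so few. The copy that rose was RLTR13B1_dup930, from a level read as no reads in WT to an implied 51.4 in Dot1l KO, at least 51.4-fold higher against the floor, with adjusted p = 0.000259 by the authors' deposited table. A second copy of the same element, RLTR13B1_dup941, chosen after its value was seen, also had no reads by this measure in WT and an implied 12.4 in Dot1l KO, with adjusted p = 1.000 by the authors' deposited table. The most abundant copy of the element, RLTR13B1_dup57, had -1.02 ± 0.84 in the authors' deposited table. The estimates thus did not share a sign, but the 95% interval of RLTR13B1_dup57, -2.66 to 0.63, includes no change.

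Single RLTR13 elements lay on both sides of 0 with wide errors. RLTR13D3_dup79 had an implied 13.8 in WT and 58.2 in Dot1l KO, or 2.08 ± 0.80 with adjusted p = 0.405 by the authors' deposited table. All 3 copies of RLTR13B2 were below 0, with a median of -3.16 at means of 9.14 to 18.4. Of these, 2 were lower at an unadjusted p under 0.05 and none was called. The most abundant, RLTR13B2_dup107, had 33.0 in WT and 3.69 in Dot1l KO, or -3.16 ± 1.28 with adjusted p = 0.529 by the authors' deposited table. All 11 copies of RLTR13D3A1 were below 0 too, with a median of -0.55 and none called; its highest, RLTR13D3A1_dup195, had -0.53 ± 0.78 in the authors' deposited table.

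For the further elements the most abundant copy serves as the example. RLTR13A_dup42 had -0.84 ± 0.76, RLTR13A2_dup30 -0.98 ± 0.91 and RLTR13C2_dup189 -1.49 ± 0.91 in the authors' deposited table. RLTR13B3_dup261, at a mean of 108.7, had -0.06 ± 0.90 in the authors' deposited table. RLTR13D5_dup573, of the element known as a trophoblast enhancer, had -0.54 ± 0.81 and RLTR13D6_dup224 had 1.56 ± 0.99 in the authors' deposited table. None of these passed. The examples of RLTR13A1, RLTR13A3, RLTR13C1, RLTR13C3, RLTR13D1, RLTR13D2, RLTR13D3A, RLTR13D4 and RLTR13E lay between -0.74 and 0.86 in the authors' deposited table, with means of 6.19 to 16.5.

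The summed level of the LTRs had a lower ratio of Dot1l KO to WT than that of the internal parts. Of internal copies with a p, 9.31% were lower, and of LTR copies 11.0%; for the pair RLTRETN_Mm and RLTR13G the share was 24.6%. Among copies with a mean of at least 20, 22 of 151 internal copies (14.6%) and 10 of 46 LTR copies (21.7%) were lower, and the median log2 fold change was -0.69 for internal and -1.94 for LTR copies. All 10 of these lower LTR copies, and most LTR copies at such means, belonged to that pair. At all means the median was -0.70 over internal copies and -0.84 over LTR copies, the latter made up of -2.62 over that pair and -0.17 over the other RLTR13 copies. Summed over copies, the implied level of internal parts was 118143 in WT and 76930 in Dot1l KO, a log2 ratio of -0.62, and that of LTRs was 8541 and 2792, a log2 ratio of -1.61. The pair held 7335 and 1761 of these LTR sums, a log2 ratio of -2.06. Over the other RLTR13 copies the ratio was -0.23, a smaller fall than that of the internal parts. The difference between internal parts and LTRs was not tested, since the tables hold no values per library.

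Copies outside the group had lower fold changes at higher means, and members did not follow that order. Among copies outside, the median went from 0.05 at a mean under 20 to -0.11 from 20 to 100, -0.34 from 100 to 500 and -0.81 in the 21 copies of 500 or more. Internal members in the same classes had medians of -0.71, -0.94, -0.61 and -0.64, so in the highest class, with 43 internal copies, their median was not below that of other copies. RLTRETN_Mm and RLTR13G had -2.97, -2.62 and -2.13 in the 3 lower classes, with 29, 25 and 14 copies. All LTR members had -0.40, -1.89 and -1.97 there, with 100, 34 and 15 copies, so this pair made up more of the LTR copies at higher means. The share of copies called lower was 1.04%, 16.2%, 20.6% and 6.98% over the 4 classes for internal members, and for other copies 0.0179%, 0.484%, 0.676% and 0. With fold changes centred within 20 bins of mean count, the median was -0.56 over internal and -0.79 over LTR copies, and 36 of the 39 lower members were still called. The bins held like numbers of copies, so the highest bin took in means from 46.4 or less to 9049 with a single shift. Differences among the higher classes were therefore not removed.

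**Figure D4:**
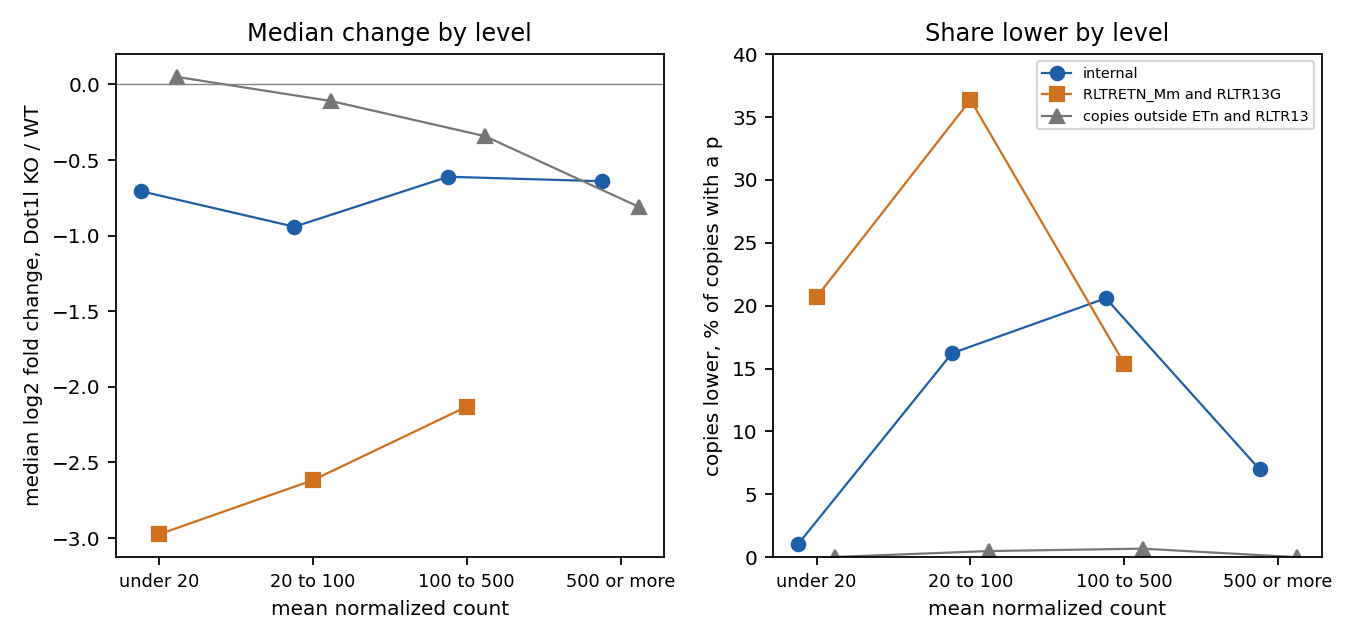
Median log2 fold change of Dot1l KO over WT (left) and share of copies with a p that were lower at an adjusted p under 0.05 (right) by class of mean normalized count, for internal members, for RLTRETN_Mm with RLTR13G and for all copies outside the group. The class with a single RLTR13G copy is left out; the line of RLTRETN_Mm with RLTR13G is the lowest on the left, from -2.97 to -2.13, and internal members meet the other copies in the class of 500 or more.

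Error limits what the abundant copies can show. The 25 members with the highest means were all internal and held 68.8% of the summed means of the group. Of these, 0 were called at an adjusted p under 0.05 in the authors' DESeq2 table, and 21 had a fold change below 0, in a range from -1.18 to 0.29. Their SE ran from 0.59 to 1.00. A copy needed an absolute Wald statistic of at least 3.46 to be called, so that even the smallest SE among them would have required a fall of 2.06 on the log2 scale. A smaller change in these copies was not detectable at this error.

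At the level of whole subfamilies, RLTRETN_Mm was the one that fell. Its log2 fold change was -2.06 ± 0.48 with adjusted p = 0.00356 by the authors' deposited table, from an implied 3778 in WT to 908.9 in Dot1l KO. It was also the 1 subfamily of the whole table that was lower, 0.107% of those tested, whereas 0.641% were higher and 0 of the 28 rows described here were. At an unadjusted p under 0.05, 5 of the 28 were lower and 0 higher, where 31 of all 936 subfamilies with a p were lower and 18 higher. RLTR13G had a similar estimate with a larger error, -2.22 ± 0.70 with adjusted p = 0.147 by the authors' deposited table, and did not pass.

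Internal parts had smaller estimates as subfamilies. MMETn-int, at a mean of 70433 normalized counts, had -0.82 ± 0.25 with adjusted p = 0.0927 by the authors' deposited table, a 95% interval of -1.31 to -0.34. ETnERV-int, at 33059, had -0.75 ± 0.29 with adjusted p = 0.428, and ETnERV3-int had -0.70 ± 0.32 with adjusted p = 0.695 by the authors' deposited table. ETnERV2-int stood at 0.02 ± 0.25 in the authors' deposited table. None of these 4 passed.

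The other 22 RLTR13 subfamilies had a median of -0.11 and ranged from -1.35 ± 0.76 for RLTR13B2 to 0.57 ± 0.42 for RLTR13D3 in the authors' deposited table. Below 0 by more than 0.5 on the log2 scale were also RLTR13A at -0.74 ± 0.41, RLTR13D3A1 at -0.72 ± 0.37, RLTR13D at -0.57 ± 0.73 and RLTR13C2 at -0.53 ± 0.47 in the authors' deposited table. RLTR13D5 at -0.02 ± 0.26 and RLTR13D6 at 0.04 ± 0.24 had the tightest estimates among them in the authors' deposited table, with 95% intervals of -0.52 to 0.48 and -0.43 to 0.51. RLTR13A1, RLTR13A2, RLTR13A3, RLTR13C1, RLTR13E, RLTR13B3 and RLTR13D3A lay between -0.40 and -0.09, and RLTR13B1, RLTR13B4, RLTR13C3, RLTR13D1, RLTR13D2, RLTR13D4 and RLTR13F between 0.03 and 0.37, in the authors' deposited table.

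For the 4 elements with the most counts, copies and subfamilies gave fold changes of the same sign and like size. Both come from the same libraries and the listed copies hold most of the subfamily counts, so this likeness is no separate support. The means of the listed copies summed to 94.1% of the subfamily mean for MMETn-int, 93.9% for ETnERV-int, 85.4% for RLTR13G and 79.1% for RLTRETN_Mm; the tables were normalized separately, so these shares are approximate. The log2 ratio of the summed implied levels of the copies was -1.98 for RLTRETN_Mm beside -2.06 for the subfamily, -2.12 for RLTR13G beside -2.22, -0.64 for MMETn-int beside -0.82 and -0.57 for ETnERV-int beside -0.75. Without the 4 copies that have no p, the ratio of RLTRETN_Mm was -1.65. Other elements differed more: the ratio was 0.08 for RLTR13B3 beside -0.16 for the subfamily, with 81.0% listed, and 1.44 for RLTR13D3 beside 0.57, with 55.9% listed. RLTR13B4, RLTR13D and RLTR13F had a subfamily row and no listed copy.

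Other retroviruses of the stem cells stand beside these counts as follows. The 348 copies of intracisternal A particles (IAP), another young ERVK group, had a median log2 fold change of -0.32 with 0 lower and 2 higher, and 23 lower and 15 higher at an unadjusted p under 0.05. The 1823 remaining ERVK copies had a median of 0.11 with 3 lower and 15 higher. MERVL-int and its LTR MT2_Mm, whose rise was used to read the direction, had 459 copies with a median of 3.80, 0 lower and 169 higher, and 2 lower and 327 higher at an unadjusted p under 0.05. Summed over copies, the log2 ratio of Dot1l KO to WT was -0.60 for IAP and -0.42 for the remaining ERVK copies. Beside these it was -0.62 for the internal members and -0.67 for all members, so a lower sum was not particular to the group. These groups stand side by side without a test of their difference.

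Genes tied to ERVK silencing had 1 call in each direction in RNA level. The list of 34 genes lies around Trim28, Setdb1, the DNA methyltransferases, HP1 proteins and histone chaperones. It also holds Tet1 and Tet2, which act in the removal of DNA methylation. Of the 34, 1 was lower and 1 higher, or 2.94% each, where 1.25% of all genes were lower and 5.34% higher. With 1 gene each way, these shares are not read further. The median log2 fold change was -0.0046 over the list and -0.02 over all genes. Chaf1b, a subunit of the chaperone CAF-1, fell by 0.93 ± 0.26 with adjusted p = 0.0105 by the authors' deposited table, from an implied 4526 in WT to 2372 in Dot1l KO. Dnmt3a, which sets new DNA methylation, rose by 0.85 ± 0.24 with adjusted p = 0.00822 by the authors' deposited table. Setdb1, the H3 methyltransferase of this pathway, had -0.13 ± 0.25, its partner Trim28 -0.08 ± 0.35 and the maintenance methyltransferase Dnmt1 -0.03 ± 0.25 in the authors' deposited table, and none of the 3 passed. The call of Chaf1b was lost at an adjusted p under 0.01, at a log2 fold change of at least 1, with Bonferroni adjustment and with centring within bins, where its value was -0.75; that of Dnmt3a was lost at a fold change of at least 1 and with Bonferroni adjustment.

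The cells carried the markers of their label, and markers of other cell types moved beside the ETn falls. The pluripotency genes Pou5f1, Sox2 and Nanog had 0 of 3 called and a summed implied level of 64053 in WT and 58382 in Dot1l KO. Markers of the 2-cell-like state, Zscan4c, Zscan4d, Zscan4f, Tcstv3 and Usp17lc, had 4 of 5 higher, with a summed level of 25.3 in WT and 1524 in Dot1l KO. Primitive endoderm genes had 3 of 4 higher, with 133.3 and 578.9, and fibroblast genes had 3 of 4 higher, with a sum of 9491 and 7894 in which Vim, which was not called, dominates. No marker was at 0 in either genotype. Over all genes 5.34% were higher, and the direction of every marker call rests on the sign read from MERVL. Their part in the ETn and RLTR13 values was not tested.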

How the data were processed

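RNA of 3 Dot1l KO and 3 WT libraries was aligned with HISAT2 2.1.0 to mm10, counted with featureCounts 2.0.0 and tested with DESeq2, per the submitters' processing notes; settings for strand and multiply mapped reads, filters and the model are not stated there. The 3 deposited tables list genes, TE subfamilies and TE copies. The deposited mean signal is, per the file headers, an average of counts scaled by DESeq2 size factors. The deposited effect and SE are on the log2 scale. The deposited score is a Wald statistic. Each p-value is deposited raw and with Benjamini-Hochberg adjustment. Recomputing statistic and adjustment gave the deposited values. Library depths are unknown, so no counting interval was computed.

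The edgeR fit that had been planned for values per sample could not be made, and all calls are the authors' DESeq2 results across all rows of a table, at an adjusted p under 0.05. Group means were implied from the mean and the fold change for groups of 3. Implied levels form steps, and one under 0.25 was read as no reads and set to a floor of 3 reads, or 1 normalized count per library. Centring and adjustment were tested on simulated data with the same offset at all means, so centring of an offset that changes with the mean was not tested. Python 3.11.15, pandas 2.3.3 and scipy 1.17.1 were used.

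The members, the silencing list and the tests were chosen with earlier results of these data known. Named were all matching subfamilies and, for internal parts and LTRs each, the 5 highest and 3 lowest fold changes among called copies with a mean of at least 20, the 5 highest means, and the highest mean of each element; other copies named were chosen after their values were seen, as were the 4 classes of level. Of the 35 listed silencing genes, Tasor had no row under that symbol. Alternatives were a threshold of 0.01, a minimum absolute log2 fold change of 1, fold changes centred by the table median or by 20 bins of mean count, a minimum mean of 20 and Bonferroni adjustment.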

Additional observations from a re-analysis of the deposited data

How the results depend on the processing

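The 39 lower members became 25 at an adjusted p under 0.01 and 13 with Bonferroni adjustment. All 39 were still called at a log2 fold change of at least 1 and with centring on the table median, and 36 of them with centring within bins of mean count. At a mean of at least 20, 35 members were lower, 32 of them among the 39. The rest of the 39, 1 internal and 6 LTR copies, had a mean under 20 and were left out by that setting. Internal copies lower went from 23 to 9 with Bonferroni adjustment, and LTR copies lower from 16 to 9 at 0.01 and 4 with Bonferroni. The median of LTR copies moved from -0.84 to -1.94 at a mean of at least 20, a setting that drops 100 of the 150 LTR copies. RLTR13B1_dup930 stayed higher and the subfamily RLTRETN_Mm lower in all 6 settings. Silencing genes lower went from 1 to 0 at 0.01, at a fold change of at least 1, within bins and with Bonferroni, and those higher from 1 to 0 at a fold change of at least 1 and with Bonferroni. Other causes were not tested. No paired analysis was possible because the tables hold no values per sample; for the same reason no replicate was left out. Depth per library is unknown.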

Other observations

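Copies carry a number in their name, and the labels do not say what that number encodes. Of MMETn-int, 47 pairs of listed copies had consecutive numbers. In 36 pairs both fold changes had the same sign, in 4 both copies were lower and in 8 only 1 was. Since 75.1% of all MMETn-int copies were below 0, many pairs would share a sign in any order, and an excess was not tested. The pair MMETn-int_dup41 and MMETn-int_dup42 had -6.46 and -3.28, and the pair MMETn-int_dup45 and MMETn-int_dup46 had -3.82 and -5.29, in the authors' deposited table, all lower, while MMETn-int_dup47 stood at -0.38. In a run of 5 numbers, MMETn-int_dup211, MMETn-int_dup212 and MMETn-int_dup213 had -0.79, -0.20 and -0.23 with none called, and the next copies, MMETn-int_dup214 and MMETn-int_dup215, had -8.19 and -3.83 in the authors' deposited table, both lower. The pair RLTRETN_Mm_dup72 and RLTRETN_Mm_dup73 had -5.79 and -5.43 in the authors' deposited table, both lower, and was the 1 pair of that element among 12 in which both were. These copies were picked after their values were seen.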
